A study of Mus musculus with 22 samples.

Results

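RNA sensing and interferon response genes were examined as a module of 43 listed genes among the 47729 genes counted in each library. The list was fixed by gene name and holds RNA sensors with their adaptor (6 genes), effector enzymes that bind RNA (8), transcription factors (5), antiviral effectors and regulators (14), immunity GTPases (7) and antigen processing genes (3). All 43 were found in the count tables. The question put to them was whether they rise together after loss of the maintenance DNA methyltransferase DNMT1, a state known as viral mimicry, or whether changes are limited to some genes and clones.

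In viral mimicry, transcripts of endogenous retroviruses that DNA methylation had kept silent form double-stranded RNA. The cytoplasmic helicases RIG-I (Ddx58) and MDA5 (Ifih1) bind such RNA and signal through the mitochondrial adaptor MAVS to the transcription factors IRF3 and IRF7, which induce interferons. Secreted interferon then acts through STAT2 and IRF9 on an interferon-stimulated response element (ISRE) in the promoters of genes such as Isg15, Ifit1 and Mx1. Mouse embryonic stem (ES) cells are known for a weak interferon response.

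The study measured RNA from mouse ES cells grown in serum and LIF, with CRISPR-Cas9 used to change the Dux cluster, whose product activates genes of the 2-cell embryo. The treated set holds KO22 (Dux-KO), N22 (Dux n=1) and WT cells, each with 2 libraries given GSK-3484862, a DNMT1 degrader, and 2 given DMSO, for 3 days. The dose is 1 uM in the treatment protocol and 2 uM in the design text, so it is uncertain. The untreated set holds 3 Dux-KO clones (15, 22 and 52), 4 Dux n=1 clones (17, 22, 31 and 40) and 3 libraries of the parental line E14. KO22 and N22 are read as 1 clone each, so clone and genotype cannot be told apart in the treated set. Nothing says that libraries of a treated group, or those of E14, came from separate cultures, so their spread may be technical. The untreated Dux-KO and Dux n=1 libraries are by label different clones, so their spread includes that between clones. P-values therefore measure only the spread between these libraries.

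Promoter windows show the element through which interferon acts, so 4 are printed here: that of Isg15, a classical target that was almost silent, those of Irgm1 and Ddx58, which were higher in all 3 genotypes, and that of Stat2, which was lower in all 3. Sequences are from RefSeq (GRCm38.p6), run 5′ to 3′ on the strand of the gene, and end at the annotated start or, for Ddx58, at the end of a match beyond it. Capitals mark the ISRE core (GAAA, any 2 bases, GAAA) on either strand, including overlapping matches.
Isg15: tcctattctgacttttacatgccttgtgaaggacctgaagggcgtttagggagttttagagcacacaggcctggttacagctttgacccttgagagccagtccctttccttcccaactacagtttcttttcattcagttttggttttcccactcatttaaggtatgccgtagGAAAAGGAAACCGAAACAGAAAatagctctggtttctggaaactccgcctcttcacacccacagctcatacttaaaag
Irgm1: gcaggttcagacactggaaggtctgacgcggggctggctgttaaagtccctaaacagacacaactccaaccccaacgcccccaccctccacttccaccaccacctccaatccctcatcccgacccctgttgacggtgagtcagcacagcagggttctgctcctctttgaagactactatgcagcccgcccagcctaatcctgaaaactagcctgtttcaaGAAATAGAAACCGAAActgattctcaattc
Ddx58: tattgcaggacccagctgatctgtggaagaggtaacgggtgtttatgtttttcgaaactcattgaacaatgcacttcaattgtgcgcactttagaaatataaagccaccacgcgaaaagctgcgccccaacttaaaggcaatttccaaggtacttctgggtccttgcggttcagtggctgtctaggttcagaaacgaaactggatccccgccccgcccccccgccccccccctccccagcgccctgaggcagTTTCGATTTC
Stat2: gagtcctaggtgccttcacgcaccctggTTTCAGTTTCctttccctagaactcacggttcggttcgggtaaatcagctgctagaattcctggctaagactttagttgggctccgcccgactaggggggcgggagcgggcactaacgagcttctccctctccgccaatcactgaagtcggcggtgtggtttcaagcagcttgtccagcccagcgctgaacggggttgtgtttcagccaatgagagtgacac

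These windows lie at chr4:156200819-156201068 (minus strand) for Isg15, chr11:48871421-48871670 (minus) for Irgm1, chr4:40239814-40240075 (minus) for Ddx58 and chr10:128270248-128270497 (plus) for Stat2. The Irgm1 window lies inside the gene as counted (chr11:48861968-48871683), whose annotated start thus differs from that of RefSeq. Isg15 had 3 overlapping cores, Irgm1 had 2, and Ddx58 and Stat2 had 1 each. Other members also moved with GSK-3484862 in all 3 genotypes. Of these, Oas3 held 1 core, Trim25, Psmb9, Mavs, Xaf1 and Irf1 held none, and Gbp9 had no window. RefSeq windows of 250 bases before and 50 after the start were matched for 35 of the 43 members, and 18 of these 35 genes (51.4%) held an ISRE core, against 1079 of 27025 genes with a window (3.99%). The core was present in 6 of 9 windowed genes that stayed below 10 counts in every library (66.7%), and in 11 of 24 that were tested in the treated set (45.8%). A GAS element (TTCNNNGAA, searched on both strands) was found in 12 of 35 members (34.3%), against 9.55% of all genes. Such a match describes the letters of a window, not a bound site.

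Depth ranged from 15803194 to 19427794 counts per library. Duxf3, the annotated Dux gene, had 0 and 0 counts in KO22 GSK and 0 and 0 in KO22 DMSO, 13 and 11 in N22 GSK, 3 and 0 in N22 DMSO, 19 and 18 in WT GSK, and 1 and 1 in WT DMSO. Untreated libraries had 0 to 5 Duxf3 counts, and the highest was the library labelled Dux-KO clone 22. Dnmt1 mRNA had 7896 to 9055 counts in the 6 GSK libraries and 8812 to 11640 in the 6 DMSO libraries, and DNMT1 protein was not measured. The summed level of 10 ES cell markers was 5008 to 5077 CPM, library counts scaled to a common total, with GSK and 6167 to 6530 with DMSO. Primitive endoderm markers, of which 8 of 10 were higher and 0 lower in WT, 6 and 2 in KO22, and 6 and 1 in N22, summed to 528 to 630 CPM with GSK and 347 to 546 with DMSO. Leukocyte markers summed to 11.8 to 15.5 CPM with GSK and 12.8 to 18.9 with DMSO. Most of this was Cd68, with 167 to 241 counts with GSK and 181 to 250 with DMSO. Cd3e followed, with 18 to 34 and 45 to 111. Lyz2 was at 0 in all 6 DMSO libraries, and Ptprc was at 0 in both WT DMSO libraries and at 1 in N22 DMSO 1. Endothelial markers summed to 86.5 to 123 CPM with GSK and 67.7 to 91.6 with DMSO. Fibroblast markers summed to 29.8 to 50.9 CPM and 22.7 to 49.8, with Postn and Twist2 at 0 in all 6 DMSO libraries. Thy1 held the largest part, with 277 to 592 counts with GSK and 330 to 769 with DMSO. Of 5 tested fibroblast markers, 4 were higher and 0 lower in WT, 3 and 1 in KO22, and 3 and 1 in N22. Trophoblast markers summed to 110 to 152 CPM and 103 to 153. The part of these cell type markers in the results below was not tested. Fewer cells of a type and less RNA per cell cannot be told apart in such bulk samples.

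The summed level of the module was 694 and 692 CPM in WT GSK and 623 and 639 CPM in WT DMSO. It was 713 and 715 CPM in KO22 GSK and 708 and 737 CPM in KO22 DMSO, and 696 and 704 CPM in N22 GSK and 676 and 664 CPM in N22 DMSO. GSK libraries were above DMSO libraries in WT and in N22, while the groups overlapped in KO22. Trim25 (a ubiquitin ligase that acts on RIG-I), Samhd1 (an enzyme that degrades deoxynucleotides) and Adar (which edits adenosines in double-stranded RNA) together held 50.4% to 62.8% of the module's counts in each of the 22 libraries. Per exon length, the highest member was Bst2 (tetherin, which holds budding virus at the cell surface), at 174 TPM, a level per exon length scaled likewise, in WT GSK and 172 TPM in WT DMSO, followed by Trim25 at 115 and 91.9 TPM.

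A group of 12 members stayed below 10 counts in every one of the 22 libraries: the sensor Ifih1, the transcription factor Irf7, the effectors Isg15, Ifit1, Ifit3, Ifi44, Mx1, Mx2 and Usp18, the GTPases Gbp2 and Gbp7, and the immunoproteasome subunit Psmb8. Isg15, a ubiquitin-like protein, had 13 counts in all 22 libraries together. Ifit1, which binds RNA that lacks cap methylation, had 3 in all, and Ifi44 had 1. Ifih1, the MDA5 sensor, had 1 and 0 counts in WT GSK and 1 and 0 in WT DMSO, 0 in all 4 KO22 libraries, 1 and 5 in N22 GSK, and 0 and 0 in N22 DMSO. Psmb8 had 1 count or fewer in each treated library. A count of 0 allows up to 3 counts (0.154 to 0.190 CPM per library), for counting error only, and of these genes Gbp2 and Irf7 had up to 9 counts in a library.

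Summed over these 12 genes, WT GSK libraries held 40 counts and WT DMSO libraries 14. As levels these were 1.09 CPM (exact Poisson 95% interval 0.781 to 1.49) in WT GSK and 0.364 CPM (0.199 to 0.610) in WT DMSO. N22 gave 41 counts with GSK and 14 with DMSO, or 1.17 CPM (0.838 to 1.58) and 0.376 CPM (0.205 to 0.630). KO22 gave 16 counts with GSK and 12 with DMSO, or 0.426 CPM (0.244 to 0.692) and 0.322 CPM (0.166 to 0.562). The intervals were apart in WT and in N22 and overlapped in KO22, and they cover counting error only. They hold for the sum, not for each gene. Whether they stay apart without Gbp2, the largest part of the sum in WT GSK and N22 GSK, was not tested. Gbp2, a guanylate-binding protein, gave 15 of the 40 counts in WT GSK (8 and 7) and 15 of the 41 in N22 GSK (6 and 9), against 0 and 2 in WT DMSO and 1 and 0 in N22 DMSO. Its ratio of GSK to DMSO levels was 7.89 (exact 95% interval 1.83 to 71.1) in WT and 15.9 (2.45 to 670.4) in N22. Irf7, the factor that amplifies interferon production, had 7 and 4 counts in WT GSK and 1 and 4 in WT DMSO, 2 and 4 in KO22 GSK and 9 and 1 in KO22 DMSO, and 1 and 2 in N22 GSK and 1 and 7 in N22 DMSO, so in counts its groups overlapped or met in all 3 genotypes. Scaled to CPM, those of WT lay just apart, at 0.217 to 0.385 with GSK and 0.0525 to 0.206 with DMSO.

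Of the interferon genes, 8 were looked up. Ifnb1, Ifna1, Ifna2, Ifna4 and Ifnl3 had 0 counts in all 22 libraries, Ifnz and Ifnl2 had 1 count each in all, and Ifnk had 7. Fragments shared by the near-identical Ifna genes were not counted.

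**Figure D1:**
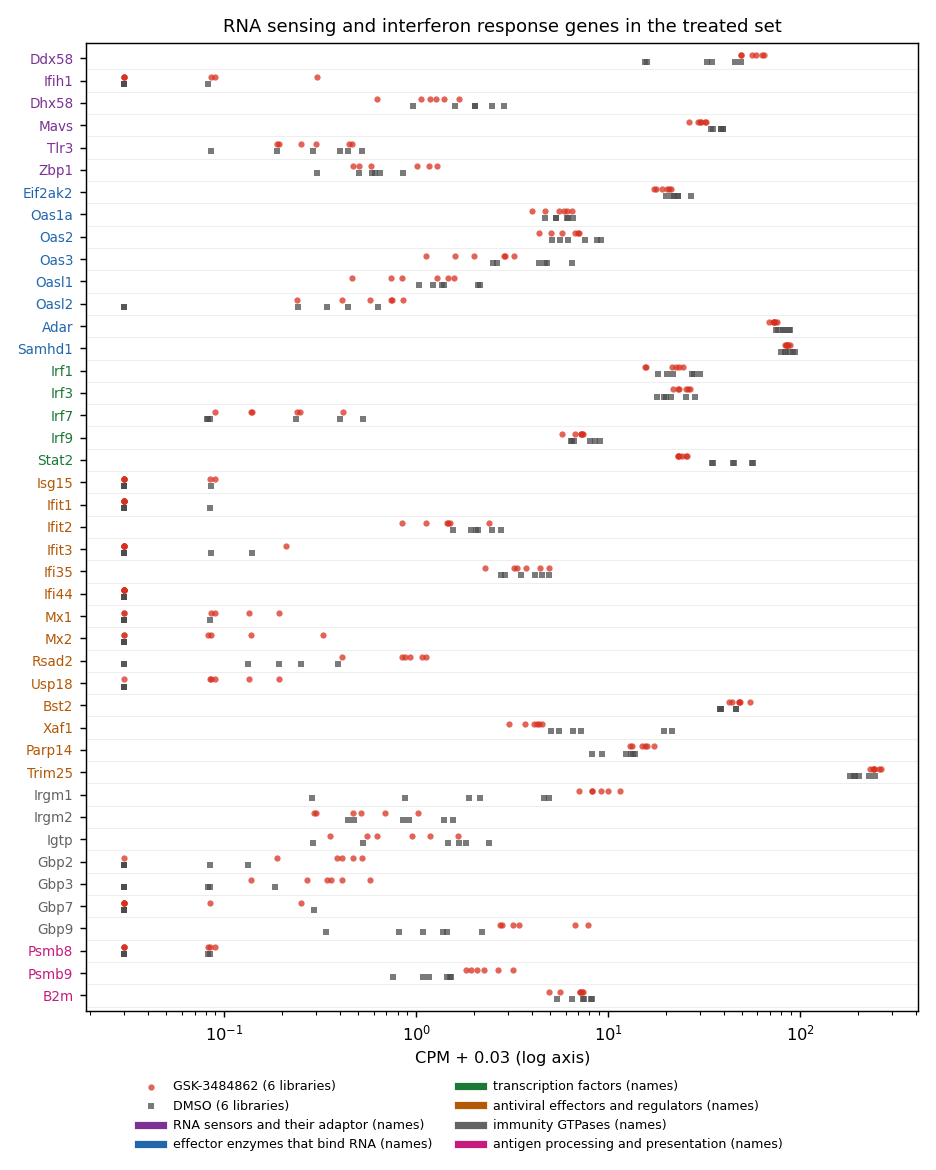
Level of each of the 43 genes in the 12 treated libraries, as CPM plus 0.03 on a log axis, with 1 point per library (circles GSK-3484862, squares DMSO) and gene names coloured by role. Ifih1, Isg15, Ifit1, Ifi44 and Psmb8 lie at or near the left edge with and without GSK-3484862, whereas Trim25, Samhd1 and Adar lie at the right.

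Of the 43 members, 29 had enough counts to be tested in the treated set, and the other 14 (the 12 above, Tlr3 and Gbp3) did not pass the filter on low counts. Tlr3, an endosomal receptor for double-stranded RNA, had 4 and 5 counts in WT GSK and 3 and 8 in WT DMSO, 8 and 3 in KO22 GSK and 1 and 5 in KO22 DMSO, and 7 and 3 in N22 GSK and 9 and 7 in N22 DMSO. Gbp3 had 6 and 10 counts in WT GSK and 1 and 3 in WT DMSO, 2 and 6 in KO22 GSK and 0 and 0 in KO22 DMSO, and 4 and 7 in N22 GSK and 1 and 0 in N22 DMSO. Its GSK groups were above the DMSO groups in all 3 genotypes, and it was at least 2.65-fold higher in KO22, taking 3 counts as the floor of the DMSO group.

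In WT cells, 8 of the 29 tested members were higher with GSK-3484862 and 6 were lower at an adjusted p below 0.05 (edgeR quasi-likelihood test, Benjamini-Hochberg over all genes tested). Among all 16641 genes tested, 28.7% were called higher and 28.1% lower, so the members' shares (27.6% and 20.7%) were near or under the background. With a change of at least 2-fold as well, 4 members were higher and 1 lower, where the background was 11.9% and 4.91% of genes. In KO22, 8 were higher and 11 lower, or 27.6% and 37.9% (background 24.8% and 21.2%), and at least 2-fold 3 and 2 (background 10.2% and 2.48%). In N22, 6 were higher and 10 lower, or 20.7% and 34.5% (background 26.9% and 26.0%), and at least 2-fold 3 and 5 (background 11.3% and 3.77%). In this fit the members' shares lower were above the background in KO22 and N22. With DESeq2 the lower calls of Oas1a, Irf1, Irf9, Ifit2 and B2m in KO22 were lost, and those of Oasl1, Irgm2 and Igtp in N22. The higher calls of Psmb9 in both and of Parp14 in KO22 were lost as well. The median log2 fold change of the tested members was 0.00 in WT, -0.10 in KO22 and -0.04 in N22, beside 0.00 over all genes in each genotype. Across the 3 responses, 26 of the 29 members were called at least once, beside 75.1% of all genes tested, and 0 were called higher in 1 genotype and lower in another, beside 4.42% of all genes. Rsad2 reached 10 counts in GSK libraries alone, so it passed the filter through the group where it was high. Without it, 7 members were higher in WT and 5 in N22, and at least 2-fold 3 in WT and 2 in N22. Oasl2 had 15 and 13 counts in WT GSK and 12 and 10 in N22 GSK. Of the DMSO libraries it reached 10 in N22 DMSO 1 alone (11), so it too passed the filter largely through GSK libraries. Its KO22 call, with 7 and 4 counts against 0 and 0, is among the 8 higher and the 3 at least 2-fold there.

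Called higher in all 3 genotypes were 5 members: Ddx58, Irgm1, Gbp9, Psmb9 and Trim25. Called lower in all 3 were also 5: Stat2, Oas3, Mavs, Xaf1 and Irf1. Among all 16641 genes, 14.4% were called higher and 12.4% lower in all 3. Psmb9, Trim25 and Irf1 are outside the rule for named genes and are named after their values were seen. Ddx58, Irgm1, Gbp9 and Stat2 kept their calls in all 3 genotypes under every alternative fit and with any 1 library left out. Ifi35, Samhd1 and Zbp1 were called in none of the 3.

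**Figure D2:**
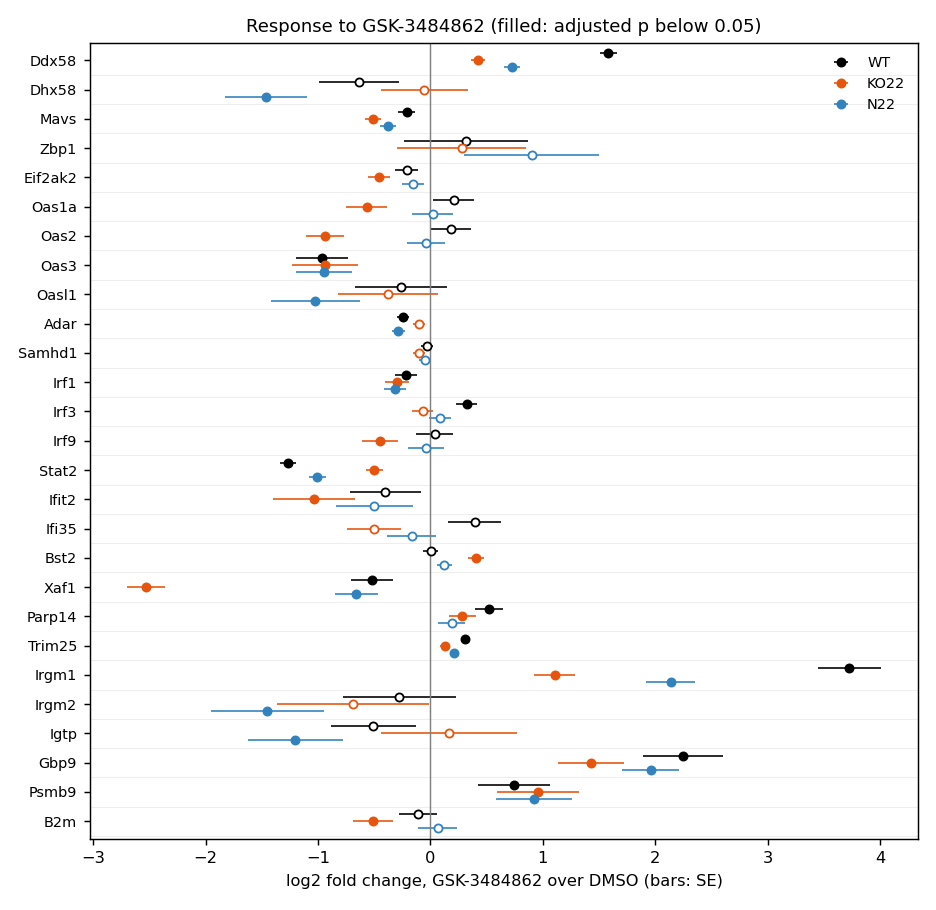
Log2 fold change of GSK-3484862 over DMSO with its SE for 27 tested members in WT, KO22 and N22 (2 libraries per group), filled where the adjusted p was below 0.05; Oasl2 and Rsad2, with 3 or fewer counts in a DMSO group, are left out. Ddx58, Irgm1 and Gbp9 lie to the right of 0 in all 3 genotypes, and Stat2, Oas3 and Xaf1 to the left.

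Among the sensors, Ddx58 was the only one called higher. Ddx58 (ENSMUSG00000040296, chr4:40203773-40239828, minus strand, GRCm38) had 897 and 902 counts in WT GSK and 296 and 310 in WT DMSO. It had 1204 and 1210 in KO22 GSK and 824 and 956 in KO22 DMSO, and 990 and 1028 in N22 GSK and 637 and 617 in N22 DMSO. No GSK library overlapped the DMSO libraries of its genotype. The log2 fold change was 1.58 ± 0.08 (SE; edgeR adjusted p = 2.12e-28) in WT, 0.42 ± 0.06 (9.29e-08) in KO22 and 0.73 ± 0.07 (1.05e-14) in N22. Per length, Ddx58 stood at 19.2 TPM in WT GSK and 6.33 TPM in WT DMSO, at 25.8 and 19.1 TPM in KO22, and at 22.8 and 13.0 TPM in N22. The GSK levels of the 3 genotypes thus lay closer together than their DMSO levels. Untreated E14, of the other set, stood at 16.9 TPM, nearer to WT GSK than to WT DMSO.

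Dhx58, the LGP2 helicase that modulates the other sensors, had 30 and 19 counts in WT GSK and 38 and 39 in WT DMSO, 23 and 22 in KO22 GSK and 28 and 18 in KO22 DMSO, and 10 and 25 in N22 GSK and 45 and 54 in N22 DMSO. Its groups overlapped in KO22 alone. It fell in N22 (log2 fold change -1.46 ± 0.36, edgeR adjusted p = 4.93e-04; -2.18 without N22 GSK 2), and its values in WT (-0.64 ± 0.35, 0.119) and KO22 (-0.06 ± 0.39, 0.926) missed the threshold. Mavs, the adaptor of both helicases, had 547 and 599 counts in WT GSK and 655 and 681 in WT DMSO, 486 and 557 in KO22 GSK and 696 and 770 in KO22 DMSO, and 508 and 588 in N22 GSK and 712 and 750 in N22 DMSO. All GSK libraries were under the DMSO libraries of their genotype. Mavs fell by 0.21 ± 0.07 on the log2 scale in WT (edgeR adjusted p = 0.0128), by 0.51 ± 0.07 in KO22 (3.34e-08) and by 0.38 ± 0.07 in N22 (1.52e-05). The WT call of Mavs was lost without WT DMSO 2 (-0.19, edgeR adjusted p = 0.0836), without WT GSK 1 (-0.15, 0.165) and with DESeq2 (-0.19, 0.137). Zbp1, a sensor of Z-form nucleic acid, had 8 to 21 counts in the 6 GSK libraries and 5 to 16 in the 6 DMSO libraries, and these ranges overlapped.

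The effector enzymes that bind RNA were lower or not called, with 1 exception at low counts. In WT 0 of 8 were higher and 2 were lower (Oas3 and Adar), in KO22 1 was higher (Oasl2) and 4 lower (Eif2ak2, Oas1a, Oas2 and Oas3), and in N22 0 were higher and 3 lower (Oas3, Oasl1 and Adar). The KO22 call of Oas1a was lost without KO22 DMSO 2 (-0.51, edgeR adjusted p = 0.0705) or KO22 GSK 2 (-0.46, 0.112). Oas3, an oligoadenylate synthetase whose product activates RNase L, had 58 and 52 counts in WT GSK and 91 and 126 in WT DMSO, 29 and 21 in KO22 GSK and 47 and 48 in KO22 DMSO, and 48 and 36 in N22 GSK and 79 and 88 in N22 DMSO. Its GSK libraries were all under the DMSO libraries of their genotype. Its log2 fold changes were close to each other, at -0.97 ± 0.23 in WT, -0.94 ± 0.29 in KO22 and -0.95 ± 0.25 in N22 (edgeR adjusted p = 2.56e-04, 0.00618 and 9.15e-04). The KO22 call was lost without KO22 GSK 2 (-0.71, edgeR adjusted p = 0.108) and the N22 call without N22 GSK 2 (-0.69, 0.0518). Eif2ak2, the kinase PKR that halts translation on double-stranded RNA, had 328 and 365 counts in KO22 GSK and 414 and 525 in KO22 DMSO, and fell by 0.46 ± 0.10 there (edgeR adjusted p = 9.50e-05). It had 366 and 319 in WT GSK and 410 and 389 in WT DMSO, and 355 and 381 in N22 GSK and 422 and 418 in N22 DMSO. These groups did not overlap, but the log2 fold changes of -0.21 ± 0.10 in WT and -0.15 ± 0.10 in N22 missed the threshold (edgeR adjusted p = 0.0667 and 0.197), and the WT value became -0.32 (0.0271) without WT GSK 1.

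Oasl1, an oligoadenylate synthetase-like protein, fell in N22 (24 and 13 counts in GSK, 39 and 39 in DMSO; log2 fold change -1.03 ± 0.39, edgeR adjusted p = 0.0243). That call was lost without N22 DMSO 1 (-0.999, 0.0861), N22 DMSO 2 (-1.05, 0.0699) or N22 GSK 2 (-0.59, 0.324), and with DESeq2 (-1.02, 0.150). In WT it had 28 and 15 counts with GSK and 26 and 26 with DMSO, and in KO22 8 and 24 with GSK and 18 and 23 with DMSO, and both pairs of groups overlapped. Its relative Oasl2 had 7 and 4 counts in KO22 GSK and 0 and 0 in KO22 DMSO, at least 3.64-fold higher with 3 counts as the floor of the DMSO group, and was called (edgeR adjusted p = 0.00506). Oasl2 had 15 and 13 in WT GSK and 6 and 8 in WT DMSO, and 12 and 10 in N22 GSK and 11 and 4 in N22 DMSO, with overlap in N22 alone and no call in WT or N22. Samhd1, called in none, had log2 fold changes between -0.10 and -0.03 with an SE of 0.05.

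Transcription factors of the pathway did not rise as a group. In WT 1 of 4 tested was higher (Irf3) and 2 were lower (Irf1 and Stat2), in KO22 3 were lower (Irf1, Irf9 and Stat2), and in N22 2 were lower (Irf1 and Stat2). Stat2 (ENSMUSG00000040033, chr10:128270576-128292849, plus strand), a transcription factor that interferon signalling activates, had 426 and 471 counts in WT GSK and 1068 and 1104 in WT DMSO. It had 475 and 461 in KO22 GSK and 632 and 673 in KO22 DMSO, and 388 and 425 in N22 GSK and 823 and 855 in N22 DMSO. The 6 GSK libraries lay within 388 to 475 counts, all under the 6 DMSO libraries. Untreated E14, of the other set, had 390, 414 and 389. Stat2 fell by 1.27 ± 0.07 on the log2 scale in WT (edgeR adjusted p = 1.65e-24), by 0.50 ± 0.08 in KO22 (6.96e-08) and by 1.01 ± 0.07 in N22 (6.55e-19).

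Irf3, the factor that RIG-I and MAVS signalling activates by phosphorylation, had 472 and 425 counts in WT GSK and 343 and 379 in WT DMSO, and rose by 0.32 ± 0.09 (edgeR adjusted p = 0.00274). The call was lost without WT DMSO 1 (0.27, 0.0534) and without WT GSK 1 (0.24, 0.0812). In KO22 it had 468 and 506 counts with GSK and 459 and 550 with DMSO, and in N22 392 and 400 with GSK and 387 and 380 with DMSO, with log2 fold changes of -0.07 ± 0.09 and 0.09 ± 0.10 that missed the threshold. Irf9, which binds DNA together with STAT2, had 121 and 134 counts in WT GSK and 122 and 128 in WT DMSO, 106 and 138 in KO22 GSK and 153 and 175 in KO22 DMSO, and 124 and 132 in N22 GSK and 147 and 123 in N22 DMSO. In counts its groups overlapped in WT and N22. Scaled to CPM, those of WT lay just apart, at 6.65 to 7.27 with GSK and 6.40 to 6.59 with DMSO. It fell in KO22 (log2 fold change -0.45 ± 0.16, edgeR adjusted p = 0.0175), a call lost without KO22 DMSO 2 (-0.40, 0.108), without KO22 GSK 1 (-0.29, 0.241) and with DESeq2 (-0.45, 0.0992). Irf1, induced by interferon gamma, fell by 0.22 to 0.32 in the 3 genotypes, and its WT call (edgeR adjusted p = 0.0470) was lost in 3 of 4 fits with 1 library left out, the farthest being -0.04 without WT DMSO 2 (0.816). Its KO22 call was lost without KO22 DMSO 1 (-0.22, edgeR adjusted p = 0.167) or KO22 GSK 2 (-0.29, 0.0666), and its N22 call without N22 DMSO 1 (-0.26, 0.0655).

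Antiviral effectors were mixed. Of 7 tested, 3 were higher in WT (Rsad2, Parp14 and Trim25) and 1 lower (Xaf1), 3 were higher in KO22 (Bst2, Parp14 and Trim25) and 2 lower (Ifit2 and Xaf1), and 2 were higher in N22 (Rsad2 and Trim25) and 1 lower (Xaf1). Rsad2 (viperin, which makes a chain-terminating nucleotide) had 19 and 7 counts in WT GSK and 0 and 2 in WT DMSO, 15 and 16 in KO22 GSK and 4 and 7 in KO22 DMSO, and 15 and 20 in N22 GSK and 3 and 0 in N22 DMSO. All GSK libraries were at or above 7 counts and no groups of a genotype overlapped. The ratio of GSK to DMSO levels was 13.7 (exact 95% interval 3.42 to 119) in WT and 12.4 (3.90 to 62.9) in N22, and both were called (edgeR adjusted p = 8.46e-04 and 2.67e-04). In KO22 the log2 fold change of 1.46 ± 0.66 missed the threshold (edgeR adjusted p = 0.0623), and became a call with only KO22 libraries in the fit (1.45, 0.0321). The WT call was lost without WT GSK 1 (2.66, 0.0639).

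Xaf1 (ENSMUSG00000040483, chr11:72301629-72313733, plus strand), an antagonist of the apoptosis inhibitor XIAP, had the largest fall of the members, in KO22. It had 56 and 78 counts in KO22 GSK and 350 and 414 in KO22 DMSO, a log2 fold change of -2.53 ± 0.17 (edgeR adjusted p = 3.44e-21). It had 82 and 80 in WT GSK and 137 and 97 in WT DMSO (-0.52 ± 0.18, 0.0128), and 71 and 67 in N22 GSK and 120 and 104 in N22 DMSO (-0.66 ± 0.19, 0.00258). The 6 GSK libraries lay within 56 to 82 counts, and KO22 DMSO stood above the other DMSO groups. The WT call was lost without WT DMSO 1 (-0.24, edgeR adjusted p = 0.402), without WT GSK 2 (-0.49, 0.0691) and with DESeq2 (-0.50, 0.0965), and the N22 call without N22 DMSO 1 (-0.53, 0.0595).

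Ifit2, which binds viral RNA, had 15 and 21 counts in KO22 GSK and 34 and 39 in KO22 DMSO, and fell by 1.03 ± 0.36 (edgeR adjusted p = 0.0149). This call was lost without KO22 DMSO 2 (-0.99, 0.0701), without KO22 GSK 1 (-0.84, 0.126) and with DESeq2 (-1.05, 0.0798). Ifit2 had 43 and 26 counts in WT GSK and 52 and 40 in WT DMSO, and 24 and 27 in N22 GSK and 45 and 29 in N22 DMSO, with log2 fold changes of -0.40 ± 0.32 and -0.50 ± 0.34 that missed the threshold. Bst2 had 1008 and 919 counts in KO22 GSK and 700 and 736 in KO22 DMSO, and rose by 0.40 ± 0.07 (edgeR adjusted p = 7.01e-07). With 882 and 889 in WT GSK and 885 and 897 in WT DMSO, and 712 and 811 in N22 GSK and 700 and 735 in N22 DMSO, its log2 fold changes of 0.00 ± 0.07 and 0.12 ± 0.07 missed the threshold. Trim25 rose by 0.13 to 0.31 in the 3 genotypes, and its KO22 call was lost without KO22 DMSO 1 (0.08, 0.213), without KO22 GSK 2 (0.11, 0.0572) and with no filter on low counts (0.09, 0.0859). The KO22 call of Parp14 was lost without KO22 DMSO 1 (0.26, 0.153), KO22 DMSO 2 (0.30, 0.105) or KO22 GSK 2 (0.20, 0.287).

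Among the immunity GTPases, Irgm1 and Gbp9 rose in all 3 genotypes. Irgm1 (ENSMUSG00000046879, chr11:48861968-48871683, minus strand), which regulates the other immunity-related GTPases and autophagy, had 128 and 151 counts in WT GSK and 16 and 5 in WT DMSO. It had 213 and 175 in KO22 GSK and 83 and 95 in KO22 DMSO, and 167 and 150 in N22 GSK and 34 and 40 in N22 DMSO. No GSK library overlapped any DMSO library. The log2 fold change was 3.72 ± 0.28 (edgeR adjusted p = 1.52e-18) in WT, 1.11 ± 0.18 (6.14e-07) in KO22 and 2.14 ± 0.22 (2.46e-13) in N22. The WT value was 4.79 without WT DMSO 1 and 3.11 without WT DMSO 2.

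Gbp9 (ENSMUSG00000029298, chr5:105077630-105139539, minus strand), a guanylate-binding protein, had 49 and 51 counts in WT GSK and 15 and 6 in WT DMSO, 63 and 60 in KO22 GSK and 19 and 26 in KO22 DMSO, and 131 and 123 in N22 GSK and 40 and 27 in N22 DMSO. Each GSK group was above all 6 DMSO libraries. Gbp9 rose by 2.25 ± 0.36 in WT (edgeR adjusted p = 1.46e-07), 1.43 ± 0.30 in KO22 (5.01e-05) and 1.96 ± 0.25 in N22 (9.41e-10), and the WT value was 3.06 without WT DMSO 1. It shares 60 exon bases each with Gbp8 and Gbp4 of the same near-identical family, so its counts are uncertain. Gbp4, outside the module, had 0 and 2 counts in WT GSK and 5 and 6 in WT DMSO, 0 and 1 in KO22 GSK and 25 and 22 in KO22 DMSO, and 5 and 3 in N22 GSK and 45 and 29 in N22 DMSO, lower with GSK where Gbp9 was higher.

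The related Irgm2 and Igtp, which share 162 exon bases, fell in N22. Irgm2 had 11 and 8 counts in N22 GSK and 25 and 29 in N22 DMSO (log2 fold change -1.45 ± 0.50, edgeR adjusted p = 0.0118), and Igtp 10 and 17 and 30 and 34 (-1.20 ± 0.42, 0.0136). Both calls were lost with DESeq2 (-1.45, 0.0767 and -1.21, 0.0900) and without N22 DMSO 2 (-1.37, 0.0700 and -1.14, 0.0675), that of Irgm2 without N22 GSK 2 (-1.18, 0.119) and that of Igtp without N22 GSK 1 (-0.93, 0.136). In WT, Irgm2 had 18 and 9 counts with GSK and 17 and 16 with DMSO, and Igtp 21 and 30 with GSK and 45 and 28 with DMSO. In KO22, Irgm2 had 5 and 5 with GSK and 8 and 8 with DMSO, and Igtp 6 and 10 with GSK and 9 and 5 with DMSO. None of these was called.

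**Figure D3:**
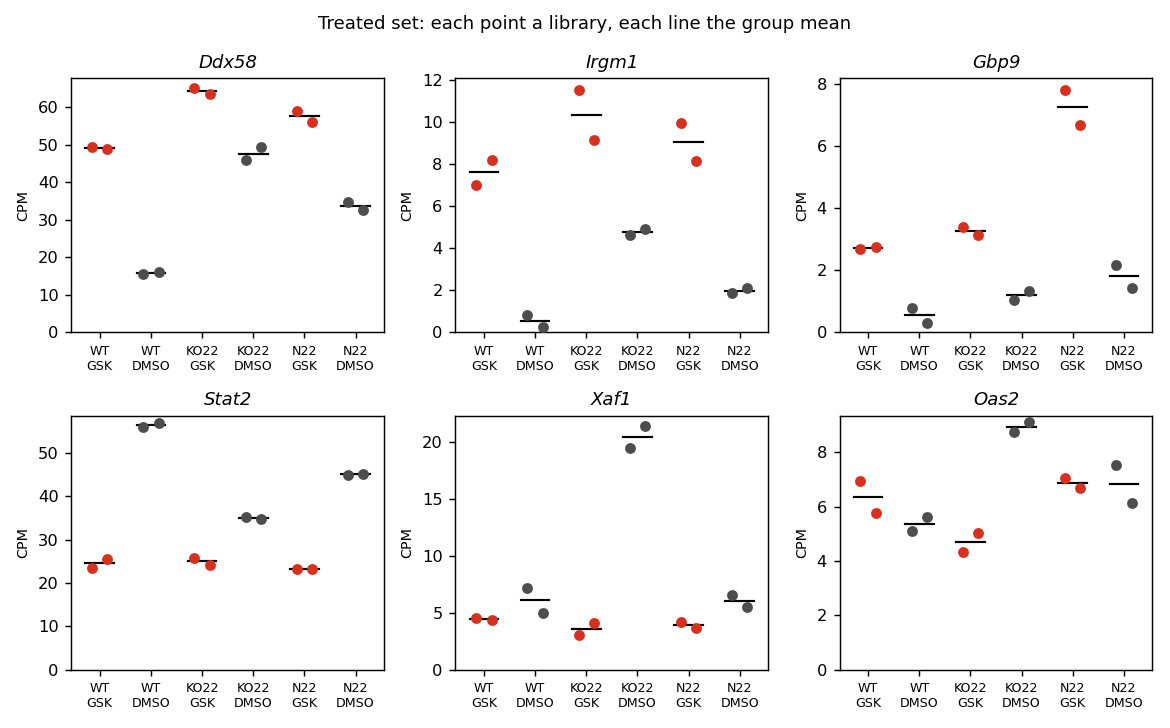
Level (CPM) of Ddx58, Irgm1, Gbp9, Stat2, Xaf1 and Oas2 in the treated set, with 1 point per library and a line at the mean of 2 libraries, GSK-3484862 in red and DMSO in grey. The 6 GSK libraries of Stat2 and Xaf1 lie close together under DMSO groups that differ between genotypes, and the 6 GSK libraries of Irgm1 and Gbp9 lie above all 6 DMSO libraries.

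For antigen processing, Psmb9, an immunoproteasome subunit, had 37 and 58 counts in WT GSK and 28 and 29 in WT DMSO, 35 and 34 in KO22 GSK and 13 and 22 in KO22 DMSO, and 44 and 41 in N22 GSK and 26 and 20 in N22 DMSO. Its GSK libraries were above the DMSO libraries in each genotype, with log2 fold changes of 0.74 to 0.96. The call held in 1 of 4 fits with 1 library left out in WT, 1 of 4 in KO22 and 2 of 4 in N22, and was lost in all 3 with DESeq2 (edgeR and DESeq2 values in WT 0.74 and 0.77, adjusted p = 0.0420 and 0.161). Psmb9 shares 212 exon bases with Tap1 on the opposite strand, which strand-blind counting cannot assign. B2m, the light chain of MHC class I, had 103 and 93 counts in KO22 GSK and 134 and 142 in KO22 DMSO, and fell by 0.51 ± 0.18 (edgeR adjusted p = 0.0136). That call was lost without KO22 DMSO 1 (-0.51, 0.0553), KO22 DMSO 2 (-0.52, 0.0512) or KO22 GSK 2 (-0.42, 0.123) and with DESeq2 (-0.52, 0.0866). B2m had 130 and 131 counts in WT GSK and 157 and 126 in WT DMSO, and 124 and 133 in N22 GSK and 99 and 154 in N22 DMSO, and these groups overlapped.

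Whether the response itself differed between genotypes was tested with interaction contrasts. The KO22 response minus the WT response was called for 11 members, 2 higher (background 18.3%) and 9 lower (background 13.5%), with a median of -0.24 beside 0.03 over all genes. Those kept under every alternative were Irgm1 (-2.62 ± 0.36, edgeR adjusted p = 2.07e-08), Xaf1 (-2.01 ± 0.25, 1.65e-09), Ddx58 (-1.16 ± 0.10, 3.15e-15), Oas2 (-1.12 ± 0.25, 2.05e-04), Stat2 (0.77 ± 0.10, 1.43e-08) and Bst2 (0.40 ± 0.09, 4.96e-04). Ddx58 and Irgm1 thus rose less in KO22 than in WT, and Stat2 fell less. Oas2 had 80 and 96 counts in KO22 GSK and 157 and 176 in KO22 DMSO, and 126 and 106 in WT GSK and 97 and 109 in WT DMSO. The N22 response minus the WT response was called for 2 members, both lower, and 0 higher (background 5.26% and 5.82%). They were Ddx58 (-0.85 ± 0.10, edgeR adjusted p = 2.58e-09) and Irgm1 (-1.59 ± 0.40, 0.00427), the second of which was lost without WT DMSO 2 (-0.98, 0.177). Without WT DMSO 1 the Irgm1 values were -3.69 for KO22 and -2.65 for N22, and without WT DMSO 2 that for KO22 was -2.01. The N22 median was -0.14 beside 0.01 over all genes.

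The clones differed from WT in DMSO, that is, without the degrader. KO22 had 11 members higher than WT and 7 lower (background 23.4% and 28.5%), and N22 had 5 higher and 2 lower (background 11.5% and 13.9%). Medians were 0.16 for KO22 and 0.15 for N22, beside -0.04 and -0.02 over all genes. Highest above WT was Irgm1, by 3.09 ± 0.30 in KO22 (edgeR adjusted p = 7.13e-14) and 1.85 ± 0.36 in N22 (3.78e-05). These became 4.16 and 2.91 without WT DMSO 1, and 2.48 and 1.24 without WT DMSO 2. Ddx58 was higher by 1.58 ± 0.08 in KO22 (3.52e-28) and 1.10 ± 0.08 in N22 (2.05e-18), and Parp14, an ADP-ribosyltransferase, by 0.60 ± 0.13 (5.78e-05) and 0.58 ± 0.13 (2.76e-04). Stat2 was lower by 0.71 ± 0.07 in KO22 (log2 fold change -0.71, edgeR adjusted p = 5.44e-14) and had a log2 fold change of -0.33 ± 0.07 in N22 (1.04e-04). Xaf1 was higher in KO22 (1.73 ± 0.15, 1.18e-15), as was Oas2 (0.72 ± 0.17, 2.09e-04), while Igtp (-2.33 ± 0.47, 2.14e-05) and Oas3 (-1.16 ± 0.24, 2.54e-05) were lower. Gbp9 was higher in KO22 (1.12 ± 0.41, 0.0181) and N22 (1.71 ± 0.38, 3.38e-04), and its KO22 call was lost without KO22 DMSO 2 (0.93, 0.139) or WT DMSO 2 (0.60, 0.314). Without WT DMSO 1 the Gbp9 values were 1.92 in KO22 and 2.51 in N22. Oasl2 had 0 and 0 counts in KO22 DMSO and 6 and 8 in WT DMSO. The same DMSO libraries enter these comparisons and the responses above, so a high DMSO level and a small rise in a clone are not independent values.

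Some untreated libraries did not go with others of their label. Dicer1, which makes small RNAs, had 997, 1689 and 627 counts in Dux-KO clones 15, 22 and 52, 2047, 2165, 1644 and 631 in Dux n=1 clones 17, 22, 31 and 40, and 1492, 1429 and 1403 in E14, beside 575 and 635 in KO22 DMSO. Tmem173, the STING adaptor, had 69, 13 and 59 counts in Dux-KO, 25, 22, 16 and 49 in Dux n=1, and 9, 9 and 7 in E14, beside 65 and 70 in KO22 DMSO. In both genes the library labelled Dux n=1 clone 40 was near that of Dux-KO clone 52 and near KO22 DMSO, and the library labelled Dux-KO clone 22 was not. Xaf1 had 142 counts in the library labelled Dux-KO clone 22, 298 in clone 52, 252 in Dux n=1 clone 40, and 350 and 414 in KO22 DMSO. Whether labels were exchanged was not tested, and each Dux-KO and Dux n=1 value below rests on the labels. These genes were chosen after their values were seen. When the Dux-KO library labelled clone 22 was dropped together with Dux n=1 clone 40, also chosen afterwards, 4 members were called in Dux-KO (4 higher, 0 lower) and 4 in Dux n=1 (3 higher, 1 lower). These counts stand without a background, since the share of all genes called in that fit is not given here.

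In the untreated set 27 members were tested, and 5 differed from E14 in each kind of edited clone. Dux-KO had 4 members higher than E14 and 1 lower (background 9.26% and 11.1% of 14796 genes), with a median of 0.34 beside 0.02. Dux n=1 had the same counts, 4 higher and 1 lower (background 4.88% and 4.28%), with a median of 0.48 beside 0.01. In both, Oas1a, Oas2, Oasl1 and Ifi35 were higher and B2m was lower, and the comparisons share the 3 E14 libraries.

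Ifi35 had 94, 74 and 81 counts in Dux-KO clones 15, 22 and 52, 54, 87, 33 and 56 in Dux n=1 clones 17, 22, 31 and 40, and 24, 27 and 22 in E14. All 7 edited libraries were above E14. The log2 fold change was 1.65 ± 0.29 in Dux-KO (edgeR adjusted p = 0.00442) and 1.19 ± 0.28 in Dux n=1 (0.0264). Oas2 had 221, 133 and 201 counts in Dux-KO, 115, 153, 106 and 139 in Dux n=1, and 70, 89 and 65 in E14, again without overlap (1.19 ± 0.22, 0.00491 and 0.75 ± 0.21, 0.0440). Oas1a had 162, 131 and 163 in Dux-KO, 128, 141, 117 and 129 in Dux n=1, and 87, 68 and 63 in E14 (0.95 ± 0.20, edgeR adjusted p = 0.00904 and 0.81 ± 0.19, 0.0280). Oasl1 had 54, 29 and 29 in Dux-KO, 32, 45, 12 and 24 in Dux n=1, and 10, 10 and 7 in E14 (1.91 ± 0.46, 0.0147 and 1.59 ± 0.44, 0.0450). These genes too did not overlap between edited and E14 libraries. B2m had 179, 99 and 107 counts in Dux-KO, 106, 160, 64 and 101 in Dux n=1, and 229, 208 and 244 in E14, with no overlap (-0.95 ± 0.26, edgeR adjusted p = 0.0253 and -1.12 ± 0.24, 0.0203).

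Ifi35 and Oas2 in Dux-KO kept their calls under every alternative. All 5 calls in Dux n=1 were lost without any 1 of the 3 E14 libraries or without Dux n=1 clone 17, leaving 0, and 3 members were called without Dux n=1 clone 22 or without clone 40. With the GC content offset all 5 were lost as well, and 1 other member was called lower. The Dux-KO calls numbered 3 without E14 1 and 2 without E14 3. Oasl1 in Dux-KO was lost without either of these (2.00, edgeR adjusted p = 0.0582 and 1.75, 0.0685), Oas1a without E14 3 (0.84, 0.0543), and B2m without any 1 of the 3 E14 libraries, clone 22 or clone 52 (-1.01 to -0.82, adjusted p = 0.0545 to 0.0914). The GC content offset ended the calls of Oasl1 (1.61, 0.0505) and B2m (-0.43, 0.316) in Dux-KO. Dux n=1 against Dux-KO gave 0 called members (background 0% of 14796 genes called), and DESeq2 also called 0. At an unadjusted p below 0.05 in edgeR, 856 genes passed, and of the members Oas2 alone (log2 fold change -0.44 ± 0.20).

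**Figure D4:**
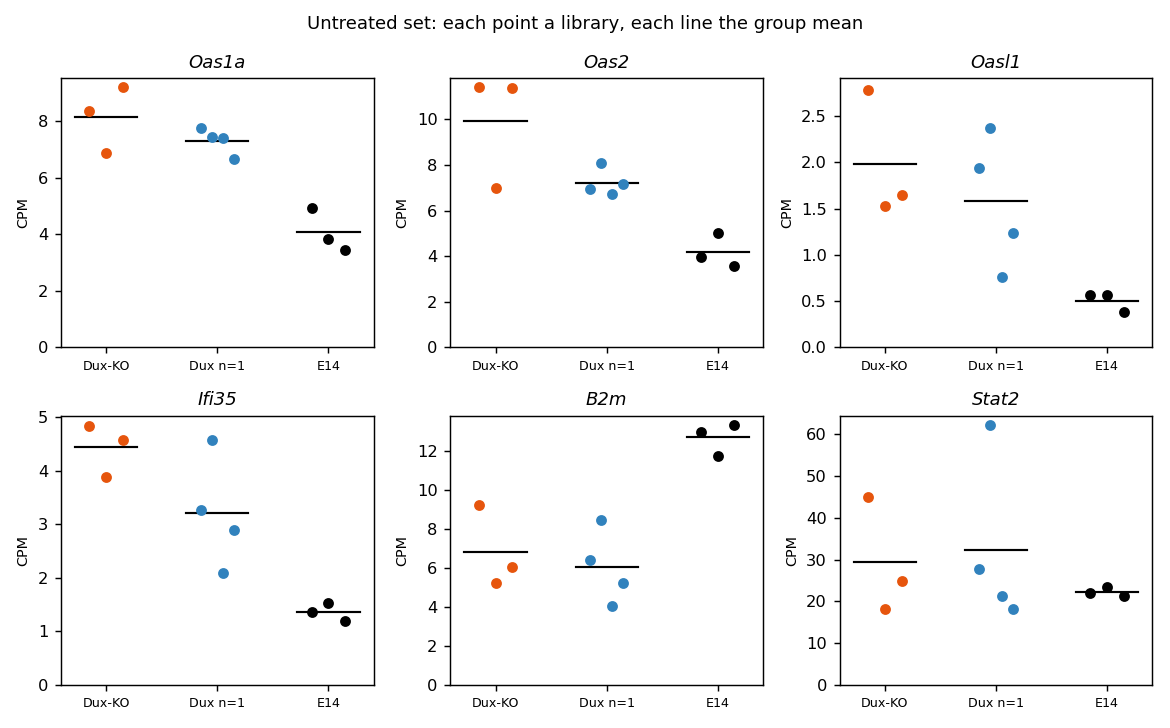
Level (CPM) of Oas1a, Oas2, Oasl1, Ifi35, B2m and Stat2 in the untreated set, with 1 point per clone or library and a line at the group mean. Oas1a, Oas2, Oasl1 and Ifi35 are higher and B2m lower in all edited libraries than in E14, and Stat2 is high in 1 Dux-KO and 1 Dux n=1 clone.

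Other members differed between clones of the same genotype. Stat2 had 872, 345 and 438 counts in Dux-KO clones 15, 22 and 52, 457, 1180, 338 and 350 in Dux n=1 clones 17, 22, 31 and 40, and 390, 414 and 389 in E14. Dux-KO clone 15 and Dux n=1 clone 22 stood apart from the rest. In the same clones Ddx58 was lowest, at 507 (against 1186 and 995 in the other Dux-KO clones) and 486 (against 682, 1026 and 1110), while E14 had 902, 840 and 911. Igtp was highest there, at 45 (against 23 and 13) and 57 (against 16, 6 and 5), with 10, 5 and 1 in E14, and so was Oas3, at 130 (82 and 46) and 161 (65, 60 and 48), with 29, 36 and 42 in E14. With both clones left out, a choice made after these values were seen, Dux-KO and Dux n=1 each had 5 members higher than E14 and 1 lower. The share of all genes called in that fit is not given here, so these counts have no background. In the treated set WT DMSO, with 1068 and 1104 counts of Stat2 and 296 and 310 of Ddx58, also stood apart from untreated E14. Mean Ddx58 was 49.1 CPM in WT GSK, 49.5 in E14 and 15.7 in WT DMSO. Stat2 was at 24.5, 22.3 and 56.4 CPM in the same order, so WT GSK lay near E14 in both genes. Irgm1 (7.62, 1.98 and 0.548) and Gbp9 (2.73, 0.932 and 0.548) were higher in WT GSK than in E14. The 2 sets were not tested against each other.

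Beyond the 43 members, 4 lists of pathway genes were counted, chosen like the members with earlier results of these data known. Of all genes tested, 28.7% were higher and 28.1% lower in WT, 24.8% and 21.2% in KO22, and 26.9% and 26.0% in N22. Of 25 tested genes for signalling upstream and interferons, 6 were higher and 7 lower in WT, 6 and 5 in KO22, and 6 and 7 in N22, that is, 24% higher in each genotype and 20% to 28% lower, near the shares of all genes. Ikbke, a kinase that activates IRF3, rose by 2.23 ± 0.40 in WT, 1.67 ± 0.36 in KO22 and 2.10 ± 0.39 in N22 (edgeR adjusted p = 1.84e-06, 9.36e-05 and 6.66e-06), with 36 to 55 counts in the 6 GSK libraries and 7 to 17 in the 6 DMSO libraries. Irf8, an interferon regulatory factor of blood cells, had log2 fold changes of -1.73 ± 0.25, -1.21 ± 0.36 and -1.76 ± 0.29 in WT, KO22 and N22 (edgeR adjusted p = 1.77e-08, 0.00383 and 5.39e-07). Of 21 other nucleic acid sensors and RNA degraders, 5 were higher and 12 lower in WT, 4 and 8 in KO22, and 3 and 11 in N22. The shares lower were 57.1%, 38.1% and 52.4% in the same order, above those of all genes, and the shares higher were 14.3% to 23.8%. Cgas, the cytosolic DNA sensor, rose by 2.19 ± 0.20, 1.28 ± 0.16 and 1.90 ± 0.22 in WT, KO22 and N22 (7.15e-15, 1.04e-09 and 1.64e-11 by edgeR). It thus went against most called genes of its list, which were lower.

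Of 28 tested other interferon-stimulated genes, 11 were higher and 6 lower in WT, 11 and 5 in KO22, and 15 and 6 in N22. The shares higher were 39.3%, 39.3% and 53.6%, above those of all genes, and the shares lower were 17.9% to 21.4%. In the treated set Lgals3bp, Cxcl10, Sp110 and Trim30d reached 10 counts in GSK libraries alone. The filter on low counts thus favours such genes where they rise, and the shares without them were not computed. Among antigen presentation genes the same holds for Nlrc5, Ciita and H2-Q1. Lgals3bp rose by 2.91 ± 0.45 in WT, 3.77 ± 0.69 in KO22 and 2.60 ± 0.49 in N22 (edgeR adjusted p = 9.88e-08, 4.95e-06 and 6.32e-06), with 15 to 61 counts in the 6 GSK libraries and 0 to 7 in the 6 DMSO libraries, and Parp10 rose by 1.62 ± 0.23, 1.93 ± 0.32 and 1.56 ± 0.22 (1.19e-08, 9.58e-07 and 1.30e-08). Of 21 tested antigen presentation genes, 8 were higher and 5 lower in WT, 6 and 4 in KO22, and 8 and 7 in N22, or 28.6% to 38.1% higher and 19.0% to 33.3% lower. Tap1, which carries peptides to MHC class I, had 272 and 250 counts in WT GSK and 53 and 70 in WT DMSO, 216 and 229 in KO22 GSK and 31 and 34 in KO22 DMSO, and 262 and 289 in N22 GSK and 39 and 37 in N22 DMSO. It rose by 2.09 ± 0.16, 2.75 ± 0.19 and 2.89 ± 0.18 (edgeR adjusted p = 4.20e-18, 1.35e-20 and 5.70e-23). H2-M3, a class I chain, had log2 fold changes of -2.10 ± 0.38, -1.57 ± 0.45 and -1.70 ± 0.41 (2.77e-06, 0.00318 and 3.17e-04). Median log2 fold changes of the 4 lists lay between -0.21 and 0.31 in the 3 genotypes, beside 0.00 over all genes.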

How the data were processed

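Each of 22 libraries had a deposited table of whole-number fragment counts over the exons of each gene, not normalized, per the file headers. The submitters' processing notes name fastp 0.23.2 for trimming, HISAT2 2.1.0 for alignment, the GRCm38 build, featureCounts 2.0.1 for counting and DESeq2 1.40.2. The recorded commands ask for neither strand nor multi-mapping reads, per the file headers. Fragments from near-identical genes (Gbp, Oas1, Ifit and immunity-related GTPase families) can therefore be lost or split, and 17 of the 43 members share exon bases with another gene. Of 47729 identifiers, 47310 were found in GENCODE M21 and took its symbols. 

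All groups of a set entered a single edgeR model (version 4.0.16, R 4.3.3). Normalization was by TMM, low genes were removed by filterByExpr (minimum count 10), and the robust quasi-likelihood test had no replicate term. The treated fit tested 16641 genes and the untreated fit 14796. Calls were made at a Benjamini-Hochberg adjusted p below 0.05 over all genes, and the SE is the absolute log2 fold change divided by the square root of F. The code was tested on simulated counts. Ratios of low counts carry exact intervals, and intervals and floors cover counting error only, since without molecular identifiers a read is not a molecule. Libraries of a group differed beyond sampling noise throughout, with chi-square values of 2.72 to 58.5 per degree of freedom.

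Members and lists were chosen with earlier results of these data known. Named in full were members called with at least a 2-fold change in any response, 15 fixed nodes of the pathway, and up to 10 called members with the largest change in the other comparisons. Alternatives were DESeq2 1.42.0, RLE size factors, no filter on low counts, a GC content offset, only the compared groups, a replicate block and each library left out. A group left with 1 library took its spread from the other groups.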

Additional observations from a re-analysis of the deposited data

Results flagged for a closer look

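Members whose response to GSK-3484862 differed between genotypes by the interaction test (edgeR, adjusted p below 0.05) are listed first, as log2 KO22 response minus WT response. Lower in KO22 were Irgm1 (-2.62), Xaf1 (-2.01), Ddx58 (-1.16), Oas2 (-1.12), Ifi35 (-0.90), Oas1a (-0.77), Irf3 (-0.39), Mavs (-0.30) and Trim25 (-0.18). Ifi35, Oas1a, Irf3 and Mavs each lost the call with DESeq2 (adjusted p = 0.119, 0.0724, 0.0583 and 0.0749) and in 4 or 5 of 8 fits with 1 library left out. Stat2 (0.77) and Bst2 (0.40) were higher in KO22. The N22 response minus the WT response differed for Ddx58 (-0.85) and Irgm1 (-1.59). Each genotype is 1 line or clone with 2 libraries per treatment.

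Among the 4 Dux n=1 clones, 2 members had a library far from the others (27 members examined, of which chance gives about 1 in 20). Zbp1 stood at 1.42 CPM in clone 22, against 0.316 to 0.465 CPM in the other clones, with the gap 0.866 of the range. Parp14 stood at 9.49 CPM in clone 31, against 12.3 to 12.9 CPM in the others, with the gap 0.831 of the range.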

How the results depend on the processing

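Calls of members depended both on single libraries and on the method. With 1 library left out, the number called was 11 (14 with all libraries) in WT, 12 to 18 (19) in KO22 and 12 to 15 (16) in N22. It was 6 to 11 (11) for the KO22 response minus the WT response, 1 to 2 (2) for N22 minus WT, 13 to 19 (18) for KO22 and 6 to 8 (7) for N22 against WT in DMSO, 2 to 5 (5) for Dux-KO and 0 to 5 (5) for Dux n=1 against E14. Members called with at least a 2-fold change numbered 5 to 9 (8) in N22. DESeq2 called 10 in WT, 12 in KO22, 12 in N22, 4 with at least a 2-fold change in N22, 7 for the KO22 minus WT response, 8 in Dux-KO and 8 in Dux n=1, and the GC content offset 1 in Dux n=1. The cause was not tested. Shares of all genes called in these fits are not given here, so the numbers show only how the calls of members changed.

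Over 67 called values, 389 of 412 other fits and 265 of 341 fits with 1 library left out kept the direction and the call, and none turned round. Members that were not called turned sign with 1 library left out, over a log2 range of -0.784 to 0.131 for Oasl1, -0.861 to 0.149 for Irgm2, -0.0219 to 0.104 for Irf9 and -0.266 to 0.0748 for B2m in WT. In KO22 these ranges were -0.386 to 0.347 for Dhx58, -1.34 to 0.184 for Oasl1, -0.241 to 0.690 for Igtp and -0.149 to 0.012 for Irf3, and in N22 -0.186 to 0.122 for Irf9 and -0.196 to 0.389 for B2m.

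The difference in log2 CPM between replicates 1 and 2 was compared between GSK and DMSO over 9597 genes. These differences correlated by 0.137 in WT, 0.0361 in KO22 and 0.0142 in N22. The replicate numbers were therefore not taken to pair libraries. A replicate block left the counts at 14, 19, 16, 11, 2, 18 and 7. With Dux-KO clone 15 and Dux n=1 clone 22 left out, a choice made after seeing the data, 6 members were called in Dux-KO and 6 in Dux n=1, again without a background share. Low counts limit the 12 members under 10 counts, where a few fragments set the ratio.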
